A study of Mus musculus with 6 samples.

Results

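Transcripts of histone genes were followed on 6 microarrays of mouse embryonic stem (ES) cells. A probe set of the array is called a row. Histone rows were those whose annotation held any symbol of the H1f, H2ac, H2bc, H2az, H2ax, H2af, H3c, H3f3, H4c or H4f groups. There were 68 such rows among 23410 rows with a named gene and 35556 rows in all. Of these, 54 covered replication-dependent genes and 14 covered variants that lie outside the replication-dependent clusters. Only 36 of the 68 rows carried 1 gene symbol. The other 32 carried several, and such a row cannot tell its genes apart. Most of these hold genes of 1 histone type, which are nearly alike in sequence. A row of H2bc6 and H1f4 and both large shared H2A rows, which also list H3c4, mix types, and the 6 shared rows of H3.3 pair H3f3a or H3f3b with Gm12657 or Gm6485.

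Histones H2A, H2B, H3 and H4 form the protein core around which DNA is wound into nucleosomes, and linker histone H1 binds where the DNA enters and leaves. Replication-dependent histone genes lie in clusters, are transcribed mainly in S phase to package newly copied DNA, and give messages that end in a stem-loop in place of a poly(A) tail. Variants such as H3.3 (genes H3f3a and H3f3b) and H2A.Z (genes H2az1 and H2az2) are made throughout the cell cycle from polyadenylated messages and are placed into chromatin by their own chaperones. ES cells divide quickly and spend much of their cycle in S phase.

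The A3-1 ES cell line was cultured in medium with serum and the cytokine LIF, which sustains the undifferentiated state, and gave 3 groups of 2 arrays each (n = 2 throughout). Cells received a small interfering RNA (siRNA) against Lin28a (siLin28a), a control siRNA against green fluorescent protein (siGFP), or no siRNA (untreated). Both siRNA groups were incubated for 48 h. No such time is listed for the untreated cells, so comparisons with them may also differ in time in culture. Each siRNA group received a single siRNA sequence, and the labels leave unstated whether a group's 2 arrays stem from separate cultures, so the p-values reflect array-to-array spread alone, which may be technical. Values are the authors' RMA expression on the log2 scale, deposited in steps of 0.1, so 1 unit is a doubling. Differences are taken between arrays within a row. Levels of different rows, such as the markers below or rows called dim or bright, are given for orientation only. They do not settle which cell types were present. The targeted transcript Lin28a, which encodes an RNA-binding protein that blocks maturation of let-7 microRNAs, was at 7.4 in both siLin28a arrays, against 9.1 and 9.4 in the siGFP arrays and 9.1 and 9.4 in the untreated arrays, a log2 fold change of −1.85 against either group. By limma its adjusted p was 0.512 against siGFP and 0.171 against untreated cells, so the targeted transcript itself did not pass the threshold of 0.05. The 8 ES cell markers had medians between 10.6 and 11.35 on the 6 arrays, while medians were 4.15 to 4.55 for 8 spermatogenic markers, 3.5 to 4.0 for 5 oocyte markers, 4.7 to 4.9 for 5 primitive endoderm markers and 5.5 to 5.7 for 5 trophoblast markers. The siLin28a arrays had the lowest ES cell marker medians, 10.6 and 10.85, against 10.9 and 11.35 with siGFP and 11.1 and 11.35 in untreated cells. The feeder fibroblast medians ran the other way, at 5.4 and 5.6 with siLin28a, against 5.1 and 5.2 with siGFP and 5.1 and 5.3 in untreated cells. Of the 9 feeder markers, 6 were higher with siLin28a than with siGFP, 4 of them without overlap, 2 were lower and 1 was equal. Their row means over 6 arrays lay between 2.25 and 6.82. Of all rows tested, 38.3% were higher, and 9.03% were higher without overlap. Dim rows as a whole ran higher too: of 12869 rows with a mean under 6, 6441 were higher, 1705 of them without overlap. The part of the feeder markers in the histone values was not tested. In RNA of whole cultures, fewer cells in S phase and less histone message per cell cannot be told apart.

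Replication-dependent histone rows were slightly higher in siGFP cells than in both other groups. Of the 54 rows, 51 had their highest group mean with siGFP. Each array was summarised by the median, over rows, of the difference from the row's mean on 6 arrays. That median was −0.158 and 0.033 in the siLin28a arrays, 0.033 and 0.20 in the siGFP arrays, and −0.167 and 0.050 in the untreated arrays. Array 2 of siLin28a and array 1 of siGFP thus met at 0.033, and the spread inside a group was about as large as the distance between groups. Among the arrays numbered 1, siGFP was highest, at 0.033 against −0.158 and −0.167. Among those numbered 2 it was also highest, at 0.20 against 0.033 and 0.050. The numbers were not taken to pair the arrays. Over the 641 rows tested with a mean of 11 or more, siGFP array 2 was highest as well, at 0.10 against −0.033 with siLin28a and 0.033 in untreated cells. For array 1 of these bright rows, siGFP was at −0.033, against −0.017 with siLin28a and −0.033 in untreated cells. Within each group, the array numbered 2 stood above the array numbered 1 in most of the 54 rows: in 49 with siLin28a, 42 with siGFP and 48 in untreated cells, each with a median gap of 0.2 log2 units. Over all rows tested, that median gap was 0.0 with siLin28a, 0.1 with siGFP and 0.1 in untreated cells.

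**Figure D1:**
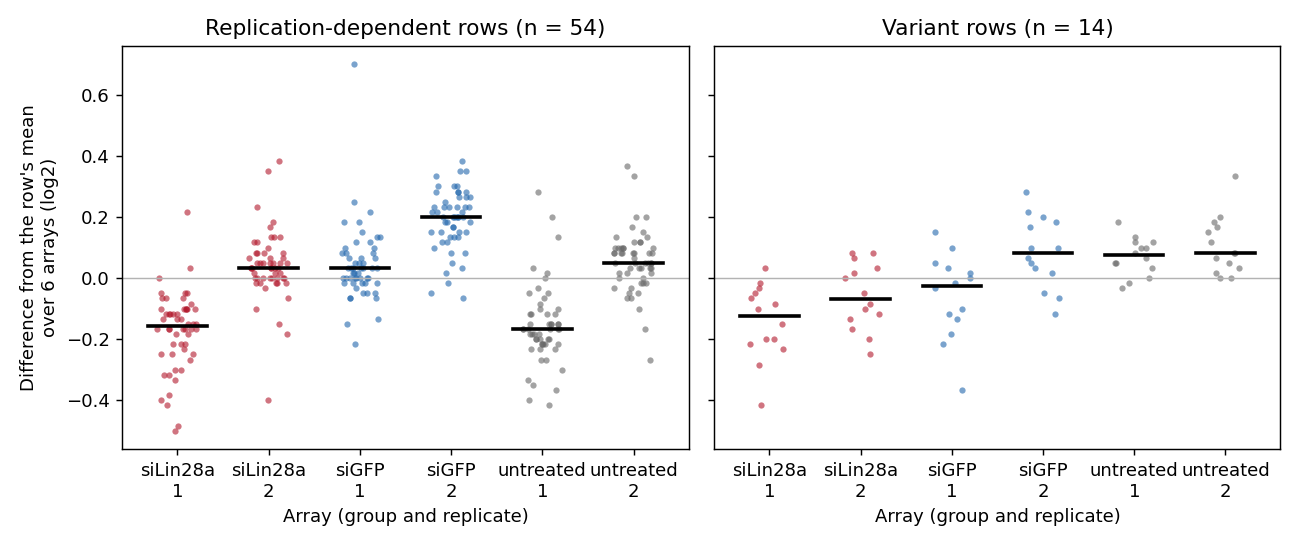
Difference of each histone row from its own mean over 6 arrays (y axis, log2 units) on each array (x axis), with 54 replication-dependent rows on the left and 14 variant rows on the right; a point is a row and a bar is the median. The replication-dependent medians run from −0.167 on untreated array 1 to 0.20 on siGFP array 2, and the arrays numbered 1 lie below those numbered 2 in each group.

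In the comparison of siLin28a with siGFP, both groups had received an siRNA and they differed in its target. Histone messages differed little: the median log2 fold change was −0.15 over the 54 replication-dependent rows, with a range from −0.70 to 0.00, and −0.10 over the 14 variant rows, with a range from −0.35 to 0.25. All rows tested had a median of 0.00. Of the replication-dependent rows, 53 were lower with siLin28a and 1 was equal, and of the variant rows 12 were lower, 1 was higher and 1 was equal, where 49.6% of all rows tested were lower and 38.3% were higher. The 54 rows carry 36 different sets of gene symbols, and the 14 variant rows carry 9. Rows of either class overlap in the genes they measure, so they are not independent observations. The 2 groups did not overlap, with siLin28a lower, in 3 replication-dependent and 5 variant rows, beside 11.8% of all rows. Rows were tested with limma, a linear model with moderated errors (SE), and p-values were adjusted over all 23410 rows. No histone row passed an adjusted p of 0.05 (0.0% of all rows passed), and by limma the smallest adjusted p of a histone row was 0.953. An unadjusted p under 0.05 was found in 3 of the 68 histone rows, H2ac1, H1f10 and H2ax, beside 4.05% of all rows.

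The replication-dependent median moved when single arrays were left out, which also unbalances the gap between arrays numbered 1 and 2. It was −0.25 without siGFP replicate 1, −0.075 without siGFP replicate 2, −0.10 without siLin28a replicate 1 and −0.25 without siLin28a replicate 2, and the count of lower rows ranged from 40 to 53. Bright rows of the array as a whole were also slightly lower with siLin28a: the median was −0.10 over 3335 rows with a mean from 8 to under 10, −0.10 over 635 rows from 10 to under 11, and −0.05 over 641 rows of 11 or more. Of the 68 histone rows, 30 had a mean of 11 or more. After cyclic loess, which removes such level-dependent shifts, the replication-dependent median was −0.08, with 53 of 54 rows still lower, and the variant median was −0.04.

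**Figure D2:**
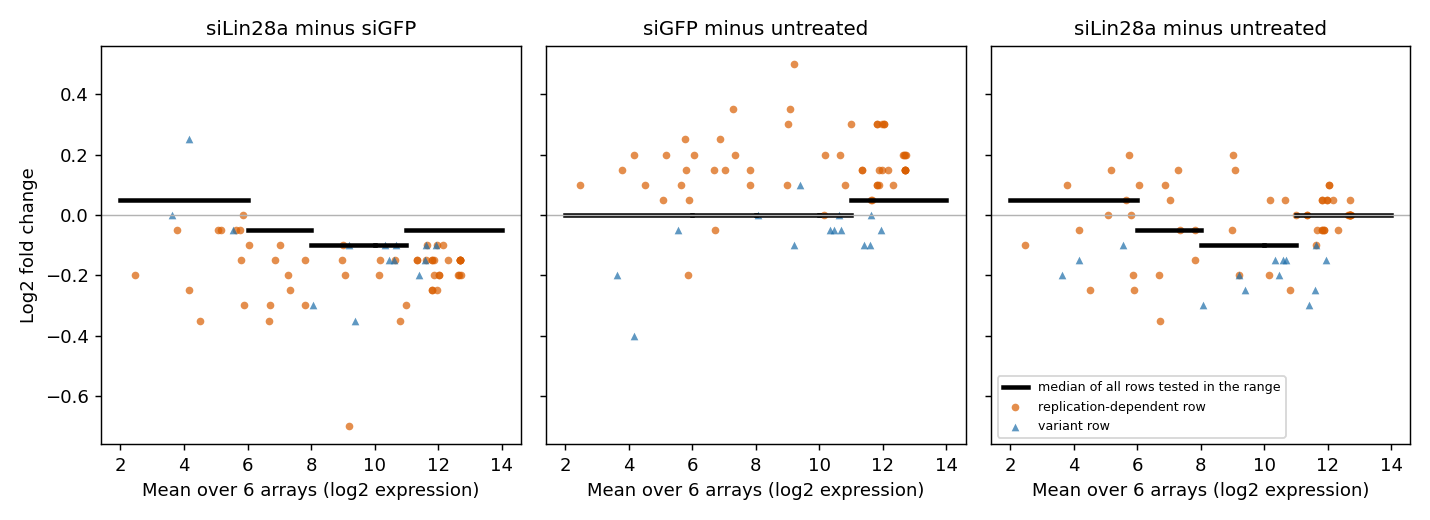
Log2 fold change (y axis) against the mean over 6 arrays (x axis, log2 expression) for the 54 replication-dependent rows (circles) and 14 variant rows (triangles) in the 3 comparisons; black bars are the median of all rows tested in a range of mean level. In the comparison of siLin28a with siGFP the bars from a mean of 6 upward lie at −0.05 or −0.10, and most histone rows lie at or below them.

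Set against untreated cells, the siGFP group shows what went with the control siRNA and its delivery. Here 51 of the 54 replication-dependent rows were higher with siGFP, 2 were lower and 1 was equal, where 44.4% of all rows tested were higher and 43.1% were lower. Their median log2 fold change was 0.15, with a range from −0.20 to 0.50, against 0.00 over all rows and 0.05 over the 641 rows with a mean of 11 or more. Variant rows did not share this direction: 1 was higher, 10 were lower and 3 were equal, with a median of −0.05. The difference between the 2 classes was not tested. Arrays of the 2 groups did not overlap, with siGFP higher, in 11 of the 54 replication-dependent rows, beside 9.22% of all rows, and with siGFP lower in 2 of the 14 variant rows, beside 8.46% of all rows. No histone row passed (smallest adjusted p 0.961 by limma, 0.0% of all rows), and 1 of 68, H1f8, had an unadjusted p under 0.05, beside 3.52% of all rows. The replication-dependent median was 0.05 without untreated replicate 1, 0.30 without untreated replicate 2, 0.25 without siGFP replicate 1 and 0.10 without siGFP replicate 2. The count of higher rows was 34 without untreated replicate 1 and 40 without siGFP replicate 2.

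The comparison of siLin28a with untreated cells differs in both the delivery of an siRNA and its target. It shares its arrays with the other 2 comparisons, so the 3 sets of values are not independent and are given side by side. Replication-dependent rows had a median log2 fold change of 0.00 between −0.35 and 0.20, with 20 rows higher, 21 lower and 13 equal, and 0 rows without overlap in either direction. The median was −0.15 without untreated replicate 1, 0.10 without untreated replicate 2, 0.10 without siLin28a replicate 1 and −0.10 without siLin28a replicate 2, so its sign rested on single arrays. All 14 variant rows were lower with siLin28a than in untreated cells, with a median of −0.175 and a range from −0.30 to −0.10, where 46.7% of all rows were lower. Rows of similar brightness ran lower too: 2185 of 3335 rows with a mean from 8 to under 10 and 440 of 635 rows from 10 to under 11 were lower, each with a median of −0.10, and 296 of 641 rows of 11 or more were lower, with a median of 0.00. The variant median was −0.11 when arrays were quantile normalized again and −0.115 after cyclic loess, with all 14 rows lower under both. Arrays of the 2 groups did not overlap in 9 of these 14 rows, with siLin28a lower, beside 12.6% of all rows. By mean level, 651 of the 3335 rows from 8 to under 10 were apart in this way. So were 144 of the 635 rows from 10 to under 11 and 68 of the 641 rows of 11 or more. The 14 rows cover 8 histone genes and are not independent. Of the 9 rows apart, 5 were H3f3a rows and 1 was an H3f3b row. No histone row passed (smallest adjusted p 0.753 by limma, 0.0% of all rows), and 1 of 68, H1f10, had an unadjusted p under 0.05, beside 6.44% of all rows.

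**Figure D3:**
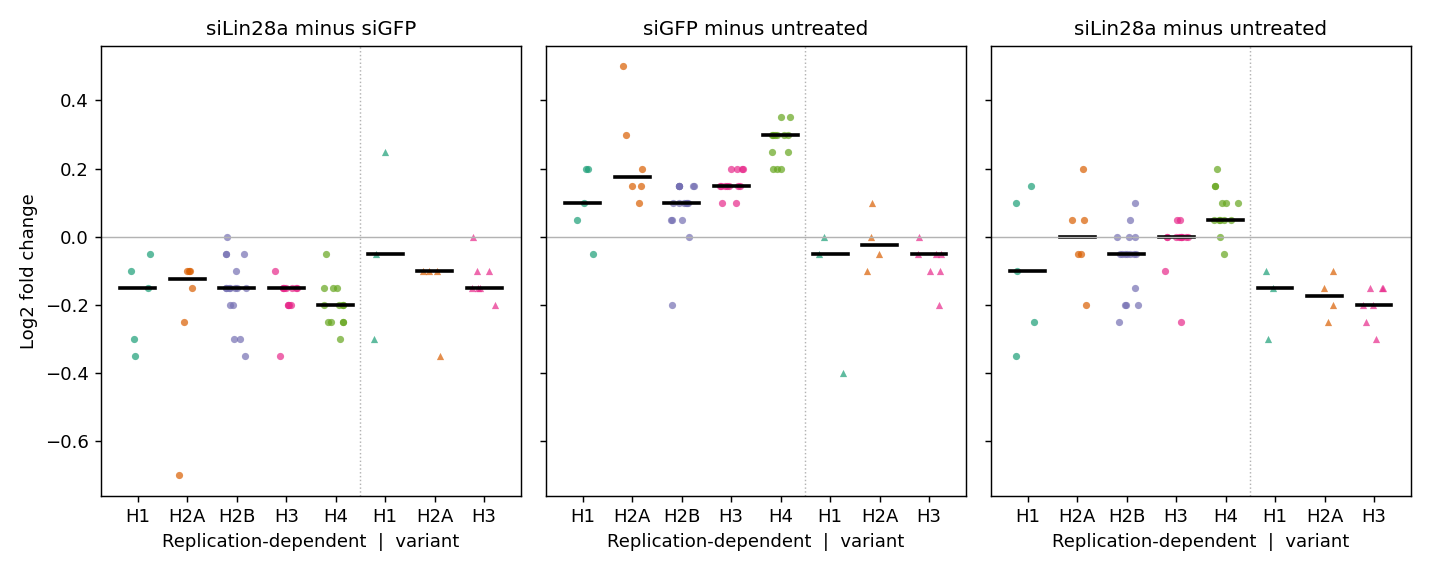
Log2 fold change of each histone row (y axis) by histone family (x axis) in the 3 comparisons, with replication-dependent rows as circles left of the dotted line and variant rows as triangles right of it; bars are medians. In siGFP minus untreated, the 13 replication-dependent H4 rows lie between 0.20 and 0.35 and the variant medians lie at or below 0; in siLin28a minus untreated, all 14 variant rows lie below 0.

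Promoter sequence was looked up because the replication-dependent rows shared a direction in 2 comparisons. Both of these use the same siGFP arrays, so they are not independent. Of 73 histone symbols on all 68 histone rows, 66 had a window in the RefSeq table of GRCm38.p6, 59 of them replication-dependent and 7 variant. A window spans 250 bases before to 50 bases after a gene's start. Windows were searched on both strands for the TATA box letters TATAAA, the CCAAT box CCAAT and the octamer ATTTGCAT, the letters known in H2B promoters as a site for Oct1. Of 60 replication-dependent windows, 56.7% held TATAAA, 85.0% held CCAAT and 21.7% held the octamer, where 13.6%, 37.4% and 1.74% of all 32851 windows did. CCAAT was in every window of the H1 (6), H2A (17), H2B (15) and H3 (10) genes and in 3 of 12 windows of H4 genes. The octamer was in 7 of 15 H2B windows and 6 of 17 H2A windows and in none of the H1, H3 and H4 windows, and divergent H2A and H2B pairs share part of their windows. Of 7 variant windows, 1 held TATAAA, 5 held CCAAT and 1 held the octamer, and the window with TATAAA and the octamer was that of H3f3b. A match is a run of letters and does not show that a factor binds there. The 4 windows below are written 5′ to 3′ with these motifs in capitals and none of the capitals overlapping. H2ac1 (chr13:23934187-23934486 on the plus strand) is the replication-dependent gene with the largest difference. H4c4 (chr13:23581318-23581617 on the plus strand) and H1f1 (chr13:23763418-23763717 on the plus strand) are an H4 gene and an H1 gene with large values in their families. H3f3b (chr11:116024455-116024754 on the minus strand) is the 1 variant gene whose window held TATAAA, so it does not stand for the other variants.
H2ac1: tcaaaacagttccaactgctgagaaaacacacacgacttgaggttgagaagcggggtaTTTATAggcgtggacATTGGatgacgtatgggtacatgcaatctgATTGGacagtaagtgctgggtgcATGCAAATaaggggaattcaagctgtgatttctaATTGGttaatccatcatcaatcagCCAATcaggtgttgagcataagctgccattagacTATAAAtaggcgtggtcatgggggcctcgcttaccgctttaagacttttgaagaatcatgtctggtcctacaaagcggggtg
H4c4: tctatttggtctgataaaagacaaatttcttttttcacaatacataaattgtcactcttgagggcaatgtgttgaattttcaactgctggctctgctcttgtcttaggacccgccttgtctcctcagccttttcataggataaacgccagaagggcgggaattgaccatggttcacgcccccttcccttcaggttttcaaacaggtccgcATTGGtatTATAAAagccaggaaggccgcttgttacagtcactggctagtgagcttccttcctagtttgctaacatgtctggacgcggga
H1f1: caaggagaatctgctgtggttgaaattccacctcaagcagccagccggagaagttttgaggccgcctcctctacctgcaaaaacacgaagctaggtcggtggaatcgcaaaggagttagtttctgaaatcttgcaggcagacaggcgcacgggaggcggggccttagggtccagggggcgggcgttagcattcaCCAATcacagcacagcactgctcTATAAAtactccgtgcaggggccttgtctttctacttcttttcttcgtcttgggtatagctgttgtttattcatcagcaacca
H3f3b: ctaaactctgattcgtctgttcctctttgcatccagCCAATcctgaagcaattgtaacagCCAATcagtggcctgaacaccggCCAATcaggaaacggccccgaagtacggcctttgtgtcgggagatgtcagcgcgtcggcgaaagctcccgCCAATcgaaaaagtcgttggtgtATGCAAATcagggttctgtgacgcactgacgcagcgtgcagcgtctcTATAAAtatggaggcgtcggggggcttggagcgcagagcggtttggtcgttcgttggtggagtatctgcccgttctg
In each of these windows TATAAA stood on the coding strand, starting 32 bases before the gene start for H2ac1 and H4c4, 33 before it for H1f1 and 27 before it for H3f3b.

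Linker histones of the clusters had 5 rows. H1f1 was at 10.4 and 10.8 in siLin28a cells, 10.8 and 11.1 in siGFP cells and 10.7 and 11 in untreated cells. Its log2 fold change was −0.35 (SE 0.20) between siLin28a and siGFP, and the groups touched at 10.8. H1f2 was at 6.3 and 6.7 in siLin28a cells, 6.5 and 7.1 in siGFP cells and 7.0 and 6.7 in untreated cells, a log2 fold change of −0.30 (SE 0.25) against siGFP and −0.35 against untreated cells. Both H1f1 and H1f2 encode main somatic H1 subtypes, and for both the groups overlapped. H1f3 was at 5.2 in both siLin28a arrays, 5.1 and 5.4 with siGFP and 5.2 and 4.9 in untreated cells, so its 0.20 (SE 0.16) between siGFP and untreated cells was within the spread. H1f6, the testis linker histone, had 6.0 and 6.1 with siLin28a, 6.3 and 6.0 with siGFP and 5.9 and 6.0 in untreated cells. Its log2 fold change of −0.10 (SE 0.14) between siLin28a and siGFP was 0.05 without siGFP replicate 1. H1f5, a somatic H1, was at 11.5 and 11.6 with siLin28a, 11.6 and 11.8 with siGFP and 11.6 and 11.7 in untreated cells, so its groups touched too.

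Among the H2A rows, H2ac1 had the largest difference of any histone row. H2ac1 encodes a testis H2A whose gene lies inside the large cluster. Its value was 8.7 and 9.1 in siLin28a cells, 9.9 and 9.3 in siGFP cells, and 8.8 and 9.4 in untreated cells. The siLin28a arrays lay below both siGFP arrays, with a log2 fold change of −0.70 (SE 0.29, adjusted p 0.953 by limma), but the untreated arrays overlapped both groups. Against untreated cells H2ac1 had −0.20 with siLin28a (0.10 without untreated replicate 2) and 0.50 with siGFP. The −0.70 was −0.40 without siGFP replicate 1, and the 0.50 ran from 0.20 to 0.80 when single arrays were left out. H2bc1, the testis H2B gene that lies next to H2ac1 and shares 220 bases of its promoter window on the opposite strand, was at 6.2 and 6.8 with siLin28a, 6.9 and 6.8 with siGFP and 6.6 and 6.8 in untreated cells. Its log2 fold changes were −0.35 (SE 0.21) against siGFP (−0.05 without siLin28a replicate 1 and −0.65 without siLin28a replicate 2), −0.20 against untreated cells (0.10 without siLin28a replicate 1) and 0.15 between siGFP and untreated cells, and its groups overlapped in each comparison.

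The remaining H2A rows with 1 symbol were less apart. H2ac8 was at 4.1 and 4.0 with siLin28a, 4.3 in both siGFP arrays and 4.0 and 4.2 in untreated cells, a log2 fold change of −0.25 (SE 0.13) with groups that did not overlap, in a row near the low end of the scale. H2ac4 was at 8.7 and 9.4 with siLin28a, 9.2 and 9.1 with siGFP and 8.6 and 9.1 in untreated cells. Its 0.30 (SE 0.27) between siGFP and untreated cells was smaller than the distance of 0.7 between the 2 siLin28a arrays, and its 0.20 between siLin28a and untreated cells was −0.05 without untreated replicate 1 and −0.15 without siLin28a replicate 2. The 2 rows shared by 19 and 20 genes, nearly all of them H2A genes and among them the variant H2ax, had log2 fold changes of −0.10 and −0.15 between siLin28a and siGFP and of 0.15 and 0.10 between siGFP and untreated cells.

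H2B had 17 rows, 9 of them with 1 symbol. H2bc18 was at 7.5 and 7.8 with siLin28a, 7.9 and 8.0 with siGFP and 7.8 in both untreated arrays. It was the H2B row in which siLin28a and siGFP did not overlap, with a log2 fold change of −0.30 (SE 0.14) that was −0.15 without siLin28a replicate 1. H2bc8 had 5.5 and 5.9 with siLin28a, against 5.9 and 6.1 with siGFP and 5.9 and 6.0 in untreated cells, a log2 fold change of −0.25 (SE 0.17) against untreated cells with groups that touched. H2bc4 went the other way from most rows between siGFP and untreated cells, at −0.20 (SE 0.16), with 5.8 in each siLin28a and siGFP array and 5.8 and 6.2 in untreated cells. The 7 rows shared by 14 or 15 H2B genes stayed close to each other, between −0.20 and −0.10 for siLin28a minus siGFP and between 0.05 and 0.15 for siGFP minus untreated. One of them, row 10403959, was at 11.2 and 11.4 with siLin28a, 11.4 and 11.5 with siGFP and 11.2 and 11.4 in untreated cells, the same pair of values in the siLin28a and untreated groups.

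The replication-dependent H3 genes, which encode H3.1 and H3.2, were read mostly by 10 rows that carry the same 12 symbols. These rows ran from 12.1 to 12.6 and from 12.2 to 12.7 on the siLin28a arrays, from 12.2 to 12.7 and from 12.3 to 13.0 on the siGFP arrays, and from 12 to 12.5 and from 12.2 to 12.8 on the untreated arrays. Their log2 fold changes lay between −0.20 and −0.10 for siLin28a minus siGFP, between 0.15 and 0.20 for siGFP minus untreated and between 0.00 and 0.05 for siLin28a minus untreated. Since they carry the same genes, they amount to repeated readings of the pooled H3 message and not to 10 genes. Row 10408083 had 12.5 and 12.7 with siLin28a, 12.7 and 12.9 with siGFP and 12.5 and 12.7 in untreated cells (−0.20, SE 0.15, for siLin28a minus siGFP), and row 10494405 had 0.20 (SE 0.14) between siGFP and untreated cells. Both sets of groups touched at 12.7. Of the single-gene rows, H3c15 was at 4.5 and 4.1 with siLin28a, 4.5 and 4.8 with siGFP and 4.7 and 4.4 in untreated cells (−0.35, SE 0.20, for siLin28a minus siGFP). H3c7 was at 2.2 and 2.5 with siLin28a, 2.3 and 2.8 with siGFP and 2.4 and 2.5 in untreated cells. Its −0.10 (SE 0.20) between siLin28a and untreated cells was 0.05 without siLin28a replicate 1, and both rows lie at the low end of the scale.

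H4 was the family with the highest median between siGFP and untreated cells, at 0.30 over 13 rows, each of them higher with siGFP and between 0.20 and 0.35. The 2 groups did not overlap in 8 of the 13 rows, beside 9.22% of all rows. Without untreated replicate 2 this count was 13, but leaving out an array can only keep or raise it. The 13 rows are not independent, since 5 of them share the same 11 H4 genes, among them H4c3, H4c4 and H4c6. H4f16, an H4 gene apart from the large clusters, was at 8.9 and 9.2 with siLin28a, 9.2 and 9.3 with siGFP and 8.8 and 9.0 in untreated cells. Its log2 fold change between siGFP and untreated cells was 0.35 (SE 0.15, adjusted p 0.961 by limma). H4c3 was at 7.0 and 7.5 with siLin28a, 7.4 and 7.5 with siGFP and 6.9 and 7.3 in untreated cells, also at 0.35 (SE 0.21). For both genes the siGFP arrays lay above both untreated arrays and the siLin28a arrays spanned the gap.

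Between siLin28a and siGFP all 13 H4 rows were lower, between −0.30 and −0.05, and in none of them were the groups apart. H4c4 was at 10.7 and 11.1 with siLin28a, 11.1 and 11.3 with siGFP and 10.7 and 11.1 in untreated cells, so the siLin28a and untreated groups held the same values and siGFP touched both at 11.1 (−0.30, SE 0.20, for siLin28a minus siGFP). Row 10403957, 1 of 5 rows that share 11 H4 genes, was at 11.6 and 11.9 with siLin28a, 11.9 and 12.1 with siGFP and 11.6 and 11.8 in untreated cells (−0.25, SE 0.16). These 5 rows had log2 fold changes between −0.25 and −0.20 for siLin28a minus siGFP and of 0.30 each for siGFP minus untreated. H4c8 was at 5.5 and 6.1 with siLin28a, 5.7 and 6.0 with siGFP and 5.4 and 5.8 in untreated cells. Its 0.20 (SE 0.25) between siLin28a and untreated cells was −0.10 without siLin28a replicate 2.

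**Figure D4:**
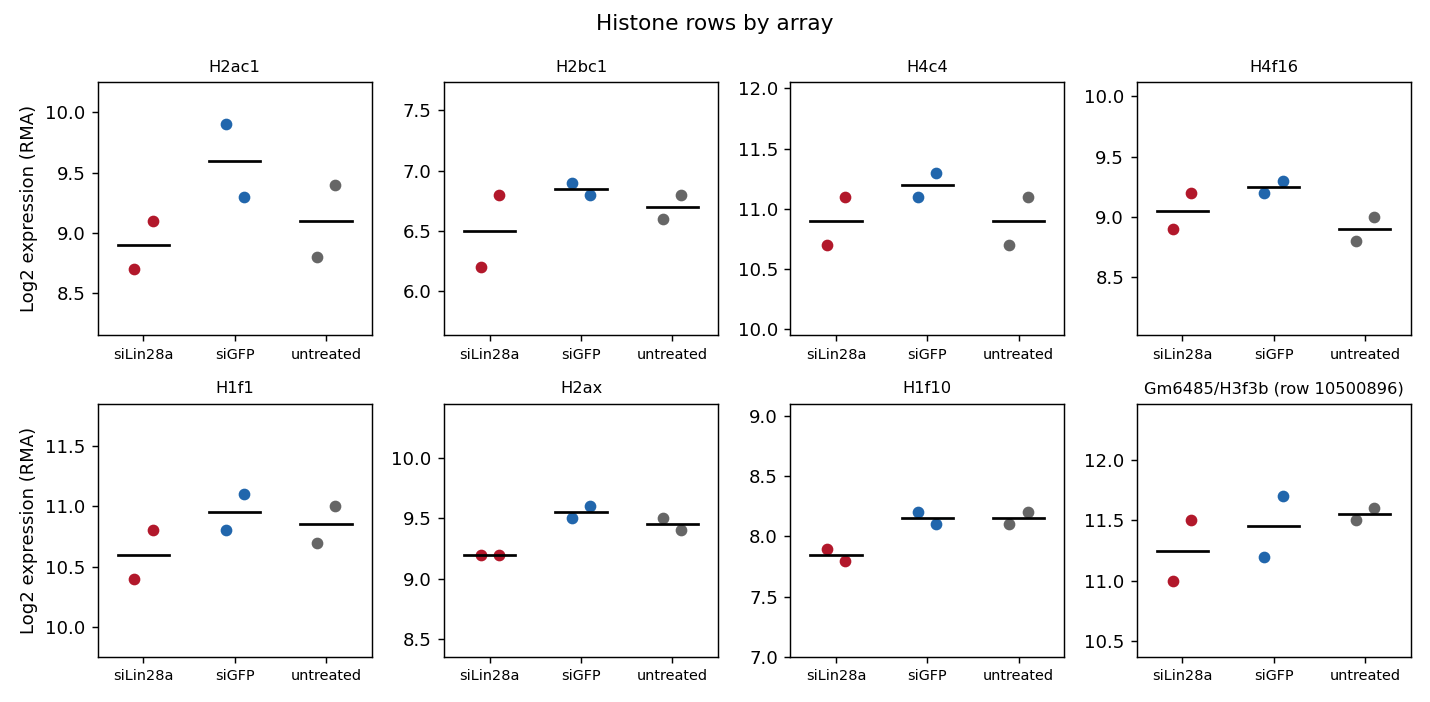
Log2 expression (y axis, RMA) of 8 histone rows on the 2 arrays of each group (points; bars are group means), each panel spanning the same number of log2 units. H2ac1, H2ax and H1f10 have both siLin28a arrays below both siGFP arrays, H4f16 has both siGFP arrays above both untreated arrays, and the groups touch or overlap in H2bc1, H4c4, H1f1 and row 10500896 of H3f3b.

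Rows of the variant H3.3, which replaces H3 outside replication, were lower with siLin28a than in untreated cells by small amounts. The 4 rows that H3f3a shares with Gm12657 ran from 10.3 to 10.6 and from 10.2 to 10.6 on the siLin28a arrays, from 10.3 to 10.7 and from 10.4 to 10.7 on the siGFP arrays, and from 10.4 to 10.8 and from 10.4 to 10.7 on the untreated arrays. Row 10540507, for example, was at 10.4 and 10.3 with siLin28a, 10.5 in both siGFP arrays and 10.6 and 10.5 in untreated cells. Its log2 fold change was −0.20 (SE 0.12) against untreated cells and −0.15 against siGFP. Rows 10360679, 10411776 and 10412378 had −0.15 each against untreated cells and −0.10, −0.15 and −0.10 against siGFP. In all 4 of these rows both siLin28a arrays were below both untreated arrays, beside 12.6% of all rows. In 3 of them they were below both siGFP arrays, beside 11.8% of all rows. Of 635 rows with a mean from 10 to under 11, 144 and 99 were apart in these ways. The 4 rows carry the same symbols, so they amount to repeated readings and not to 4 results. The row that carries H3f3a alone was dim, at 3.6 and 3.5 with siLin28a, 3.6 and 3.5 with siGFP and 3.8 and 3.7 in untreated cells, and gave −0.20 (SE 0.12) for each siRNA group against untreated cells.

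H3f3b, the second H3.3 gene, shared 2 rows with the pseudogene Gm6485. Row 10393058 was at 11.3 and 11.6 with siLin28a, 11.4 and 11.8 with siGFP and 11.7 in both untreated arrays, and row 10500896 was at 11 and 11.5 with siLin28a, 11.2 and 11.7 with siGFP and 11.5 and 11.6 in untreated cells. Their log2 fold changes were −0.25 (SE 0.18) and −0.30 (SE 0.23) for siLin28a minus untreated and −0.15 and −0.20 for siLin28a minus siGFP. The differences from untreated cells were −0.10 and −0.05 without siLin28a replicate 1. In both siRNA groups the 2 arrays were 0.3 to 0.5 apart, further than the untreated arrays. The direction against siGFP rested on single arrays: each row had 0.05 without siGFP replicate 2, and row 10500896 also had 0.05 without siLin28a replicate 1. Between siGFP and untreated cells both rows had −0.10, which was 0.10 and 0.15 without siGFP replicate 1.

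H2ax encodes the H2A variant that is phosphorylated around DNA breaks. It was at 9.2 in both siLin28a arrays, 9.5 and 9.6 in the siGFP arrays, and 9.5 and 9.4 in the untreated arrays. Both siLin28a arrays lay below the 4 others. The log2 fold change was −0.35 (SE 0.12, unadjusted p 0.0224, adjusted p 0.953 by limma) against siGFP and −0.25 against untreated cells, and 0.10 between siGFP and untreated cells. H2ax had the smallest unadjusted p of the 68 histone rows in the comparison with siGFP.

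The genes of H2A.Z, the variant found at promoters and enhancers, differed less. The 2 rows of H2az1 were at 11.4 and 11.7 (row 10496379) and 11.7 and 12 (row 10540999) with siLin28a, at 11.5 and 11.8 and at 11.8 and 12.1 with siGFP, and at 11.6 and 11.7 and at 11.9 and 12.1 in untreated cells. Both rows stood at −0.10 (SE 0.16 and 0.17) on the log2 scale for siLin28a minus siGFP, and both turned to 0.05 when either siGFP replicate 2 or siLin28a replicate 1 was left out. Against untreated cells they had −0.10 and −0.15 with siLin28a, of which the first was 0.05 without siLin28a replicate 1. With siGFP they had 0.00 and −0.05, of which the −0.05 was 0.05 without untreated replicate 2 and 0.10 without siGFP replicate 1. H2az2 was at 9.0 and 9.2 with siLin28a, 9.1 and 9.3 with siGFP and 9.2 and 9.4 in untreated cells, a log2 fold change of −0.20 (SE 0.15) for siLin28a minus untreated. The groups overlapped or touched in every H2A.Z row and comparison.

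Of the linker variants, H1f10, a somatic H1 outside the clusters, was the one with groups apart in both comparisons of siLin28a in the same direction. It was at 7.9 and 7.8 with siLin28a, 8.2 and 8.1 with siGFP, and 8.1 and 8.2 in untreated cells. The log2 fold change was −0.30 (SE 0.12, unadjusted p 0.0442) against siGFP and against untreated cells, with adjusted p values of 0.953 and 0.753 by limma. The siGFP and untreated groups held the same pair of values. H1f8, the oocyte linker histone, was at 4.2 in both siLin28a arrays, 3.8 and 4.1 with siGFP, and 4.2 and 4.5 in untreated cells, and had −0.40 (SE 0.16, unadjusted p 0.0475, adjusted p 0.961 by limma) between siGFP and untreated cells. It was the variant row that was higher with siLin28a than with siGFP, at 0.25. H1f7, the spermatid linker histone, was at 5.5 in both siLin28a arrays, 5.6 and 5.5 with siGFP and 5.6 in both untreated arrays. H1f7 and H1f8 were dim, as were the spermatogenic and oocyte markers.

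Genes that make, process, degrade and deposit histones showed no row past the threshold in any comparison. Between siLin28a and siGFP, 38.3% of all rows tested were higher and 49.6% were lower, which stands beside the counts of each list here. The list of histone transcription and 3′ processing had 4 of 17 measured genes higher, 11 lower and 2 equal, with a median log2 fold change of −0.05. Its largest values were those of Casp8ap2 (FLASH), which recruits the processing machinery, and Ccne2, a cyclin that drives histone transcription with Cdk2. Casp8ap2 was at 5.7 and 5.2 with siLin28a, 6.5 and 5.3 with siGFP and 5.4 and 5.2 in untreated cells, so its −0.45 (SE 0.39) rested on siGFP replicate 1, without which it was 0.15. Ccne2 was at 4.9 and 5.2 with siLin28a, 5.3 and 5.6 with siGFP and 6.5 and 5.3 in untreated cells (−0.40, SE 0.38). The list of histone mRNA decay had 1 of 8 genes higher and 7 lower, with a median of −0.10. Tut4, a terminal uridylyltransferase, was at 6.8 and 6.9 with siLin28a, 7.4 and 7.1 with siGFP and 7.1 and 6.5 in untreated cells (−0.40, SE 0.22), and Atr, a replication checkpoint kinase, had −0.35 (SE 0.25). Without siGFP replicate 1, Tut4 had −0.25 and Atr −0.10.

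Histone chaperones had 7 of 23 measured genes higher, 15 lower and 1 equal between siLin28a and siGFP, with a median of −0.05. Atrx, which with Daxx deposits H3.3, was at 6.7 and 6.6 with siLin28a, 7.5 and 6.7 with siGFP and 7.1 and 6.4 in untreated cells (−0.45, SE 0.32), and its difference from siGFP was −0.05 without siGFP replicate 1. Anp32e, which removes H2A.Z, was at 8.9 and 9.2 with siLin28a, 9.2 and 9.4 with siGFP and 9.6 and 9.2 in untreated cells (−0.25, SE 0.19). In both genes the groups overlapped or touched. DNA replication genes, which act in the phase when replication-dependent histones are made, had 2 of 24 measured genes higher, 16 lower and 6 equal, with a median of −0.10. Bright rows of the array ran much the same way. Of 3335 rows with a mean from 8 to under 10, 2317 were lower, and of 635 rows from 10 to under 11, 467 were lower. Each of these ranges also had a median of −0.10. Pola1, a subunit of DNA polymerase alpha, was at 7.7 and 8.0 with siLin28a, 8.4 and 8.3 with siGFP and 9.0 and 8.0 in untreated cells (−0.50, SE 0.32). Lig1, which joins Okazaki fragments, was at 9.5 in both siLin28a arrays and 9.7 on each siGFP and untreated array (−0.20, SE 0.11). Mcm4 and Ung were also at −0.20, and Gins2 was at 0.20. Between siGFP and untreated cells, where 51 of 54 replication-dependent histone rows were higher, the replication list had 9 genes higher, 9 lower and 6 equal, with a median of 0.00. Of all rows tested, 44.4% were higher and 43.1% were lower in that comparison.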

How the data were processed

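Total RNA of 6 samples of the A3-1 line was labelled by a whole-transcript Affymetrix protocol, as the labels state. The deposited log2 values came from Affymetrix Expression Console with RMA, per the submitters' processing notes. RMA subtracts background, equalises array distributions and summarises each probe set. For versions, array library files and the genome build, the sources used here give nothing. Array medians were 5.2 or 5.3. Upper quartiles were 7.0 and 7.1 on the siLin28a arrays and 7.2 on each siGFP and untreated array, so the deposited distributions were not fully equal. No 2 arrays were identical (at most 18.7% of tested rows equal), and the number of arrays limits the precision.

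Row symbols came from the platform annotation and were checked by Entrez number against RefSeq genes. Differences were tested two-sided with limma 3.58.1 under R 4.3.3, with lmFit and eBayes on all 6 arrays in 3 groups, with 3 residual and 3.19 prior degrees of freedom, Benjamini-Hochberg adjustment over 23410 rows and a threshold of 0.05. Errors are moderated standard errors (SE). With 2 arrays on each side, 0.333 is the smallest p of an exact permutation test, so none is given. The fit was tested on simulated data. The members, lists and tests were chosen with earlier results of these data known. Named are all variant rows, testis genes of the clusters, the 2 rows of each replication-dependent family with the largest log2 fold change in each comparison, H1f5 for completeness, and the 2 genes of each pathway list with the largest value in siLin28a minus siGFP, ties going to the smaller unadjusted p. Genes tied with Lig1 were named after their values were seen. A listed gene with several rows was represented by its brightest row. Alternatives were other normalizations, priors and filters, a replicate block, leaving out each array and, chosen after seeing the data, averaging rows with the same genes and recounting rows under these settings. Protein sequences were not used here.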

Additional observations from a re-analysis of the deposited data

How the results depend on the processing

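No histone row passed the threshold under any alternative. Over all rows 0 passed in each comparison, with 949 (siLin28a minus siGFP), 825 (siGFP minus untreated) and 1508 (siLin28a minus untreated) at an unadjusted p under 0.05; least squares without the shared prior also called 0, with 943, 835 and 1221. For siLin28a minus siGFP 1 row, that of Lin28a, passed after cyclic loess and again with a robust prior. For siLin28a minus untreated 5 and 7 rows did, that of Lin28a among them. With any 1 array left out, 0 passed in each comparison. The cause of these moves was not tested.

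Without 1 array, replication-dependent medians ranged from −0.25 to −0.075 (siLin28a minus siGFP), 0.05 to 0.30 (siGFP minus untreated) and −0.15 to 0.10 (siLin28a minus untreated), and variant medians from −0.20 to −0.05, −0.125 to 0.00 and −0.20 to −0.15. The last variant median, −0.175, was −0.11 when quantile normalized again and −0.115 with cyclic loess. H4 rows higher without overlap in siGFP ranged from 8 to 13, a count that leaving out an array can only keep or raise. With rows of 1 symbol the replication-dependent medians were −0.175, 0.15 and −0.05, and with rows of the same genes averaged −0.15, 0.15 and −0.01.

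Of 89 named log2 fold changes, 62 turned or moved by over 1.5 times when some single array was left out. Those that turned ranged, for siLin28a minus siGFP, from −0.25 to 0.05 (H1f6 and both H2az1 rows), −0.35 to 0.05 and −0.45 to 0.05 (the H3f3b rows 10393058 and 10500896) and −1.05 to 0.15 (Casp8ap2). For siGFP minus untreated they ranged from −0.20 to 0.10 (H2az1 row 10540999), −0.30 to 0.10 and −0.35 to 0.15 (H3f3b). For siLin28a minus untreated they ranged from −0.50 to 0.10 (H2ac1 and H2bc1), −0.25 to 0.05 (H2az1 row 10496379 and H3c7), −0.15 to 0.55 (H2ac4) and −0.10 to 0.50 (H4c8).

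Deviations of same-numbered arrays from their group means correlated at 0.357 for siLin28a and siGFP, 0.154 for siGFP and untreated and −0.0352 for siLin28a and untreated, so the numbers were not taken to pair the arrays. With the replicate block 0 rows passed in each comparison, the unadjusted counts were 1350, 1255 and 1933, and the log2 fold changes stay the same by construction.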

Other observations

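Histone genes that the membership rule left out were measured by 6 rows. Macroh2a1, which encodes the macroH2A variant linked to repressed chromatin, was at 8.3 and 8.7 with siLin28a, 9.0 and 9.4 with siGFP and 9.2 and 9.3 in untreated cells. Both siLin28a arrays lay below the 4 others, with a log2 fold change of −0.70 (SE 0.20, adjusted p 0.953 by limma) against siGFP and −0.75 against untreated cells (adjusted p 0.640). Its paralog Macroh2a2 was at 6.3 and 6.5 with siLin28a, 5.9 and 5.8 with siGFP and 6.4 and 6.3 in untreated cells. It was 0.55 (SE 0.13, adjusted p 0.953 by limma) higher with siLin28a than with siGFP, but 0.05 higher than in untreated cells, so it was the siGFP group that stood apart. Cenpa, the H3 variant of centromeres, was at 9.2 and 9.3 with siLin28a, 9.1 and 9.3 with siGFP and 9.2 and 9.1 in untreated cells, a log2 fold change of 0.05 (SE 0.13). H2bu2, H2al2a and H2bl1 had log2 fold changes of −0.05, −0.05 and 0.30 against siGFP.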
